A study of Mus musculus with 9 samples.

Results

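Genes of peripheral nerve were followed across age in the mouse seminal vesicle, the male accessory gland that secretes much of the seminal fluid. Snap25, Tubb3, Nefl, Uchl1 and Snhg11 are typical of neurons, and Sox10, S100b and Ptprz1 of Schwann cells and other glia. These 8 genes, of 53379 in the count table, were selected on measured values: their counts had been seen to be high in replicates 1 and 2 at 21 months. Their levels at 21 months are therefore given as a description with no test, and only the comparison of 13 with 3 months was tested. Total RNA was sequenced from seminal vesicle tissue of mice aged 3, 13 and 21 months, with 3 libraries per age and 9 in all. No treatment is given in the labels, and neither strain, genotype nor pooling of animals was given in the sources used here. Whether each replicate came from its own animal is not stated in the labels, so p-values measure only the spread between these libraries, which may be technical.

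The seminal vesicle wall is innervated by autonomic fibres, noradrenergic ones that drive contraction of its smooth muscle and cholinergic ones that also carry nitric oxide synthase and vasoactive intestinal peptide. The neuron cell bodies lie in pelvic ganglia outside the gland, while Schwann cells accompany the axons within it. SNAP25 is the SNARE protein of the presynaptic membrane that drives transmitter release, TUBB3 and the light neurofilament chain encoded by Nefl build the axonal cytoskeleton, and UCHL1, a ubiquitin hydrolase also called PGP9.5, is a standard stain for nerve fibres. Snhg11 is a small nucleolar RNA host gene whose transcript is abundant in neurons. SOX10 is the transcription factor that keeps neural crest cells in the Schwann cell lineage, S100B is a calcium-binding protein of Schwann cells that adipocytes also make, and PTPRZ1 is a receptor tyrosine phosphatase of glial cells that binds pleiotrophin.

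Library totals ran from 16536160 to 24791943 counts, so that 3 counts, the limit a count of 0 allows, correspond to between 0.121 and 0.181 CPM (counts scaled to a library total of 1000000). The tissue label was borne out by its defining transcripts: 10 secretory genes, among them the Svs genes, held 55.8% to 62.0% of counts in 7 libraries. Replicates 1 and 2 at 21 months stood apart, with 22.1% and 44.1%. Replicate 1 held 25397 CPM of a list of 10 prostate genes, against 1337 to 2684 CPM in the other 8 libraries, and its Hoxb13 and Msmb counts of 1831 and 944 faced 0 in all others. Spink1 and Trpv6 of that list were abundant in all libraries. Replicate 2 held 2977 CPM of a list of 14 adipocyte genes and replicate 1 held 398.3 CPM, against 23.2 to 51.1 CPM in the other 7 libraries. The high nerve gene values lie in these same libraries. For the 8 genes, values by library or with replicate 3 alone at 21 months are given. Most fitted values of other genes include replicates 1 and 2 and are not given without them. The part of the other tissues in the results was not tested. In bulk RNA, fewer cells of a type and less RNA per cell cannot be told apart.

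The nerve genes were near the detection limit at 3 months and high in 21-month replicates 1 and 2. Summed over all 8, the level was 1.39, 1.63 and 1.87 CPM in the 3-month replicates 1 to 3, and 2.07, 4.69 and 3.51 CPM at 13 months. At 21 months it was 63.5, 53.5 and 6.75 CPM. Even the highest level, 1089 counts in 21-month replicate 1, was 0.00635% of that library. For each of the 8 genes, replicates 1 and 2 at 21 months lay above the other 7 libraries, with CPM taken per library total or scaled by TMM (trimmed mean of M-values). Over all 18831 genes with at least 30 counts, 11.9% showed that order with TMM scaling and 60.9% by library totals, and since it chose the genes nothing is read from their count.

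**Figure D1:**
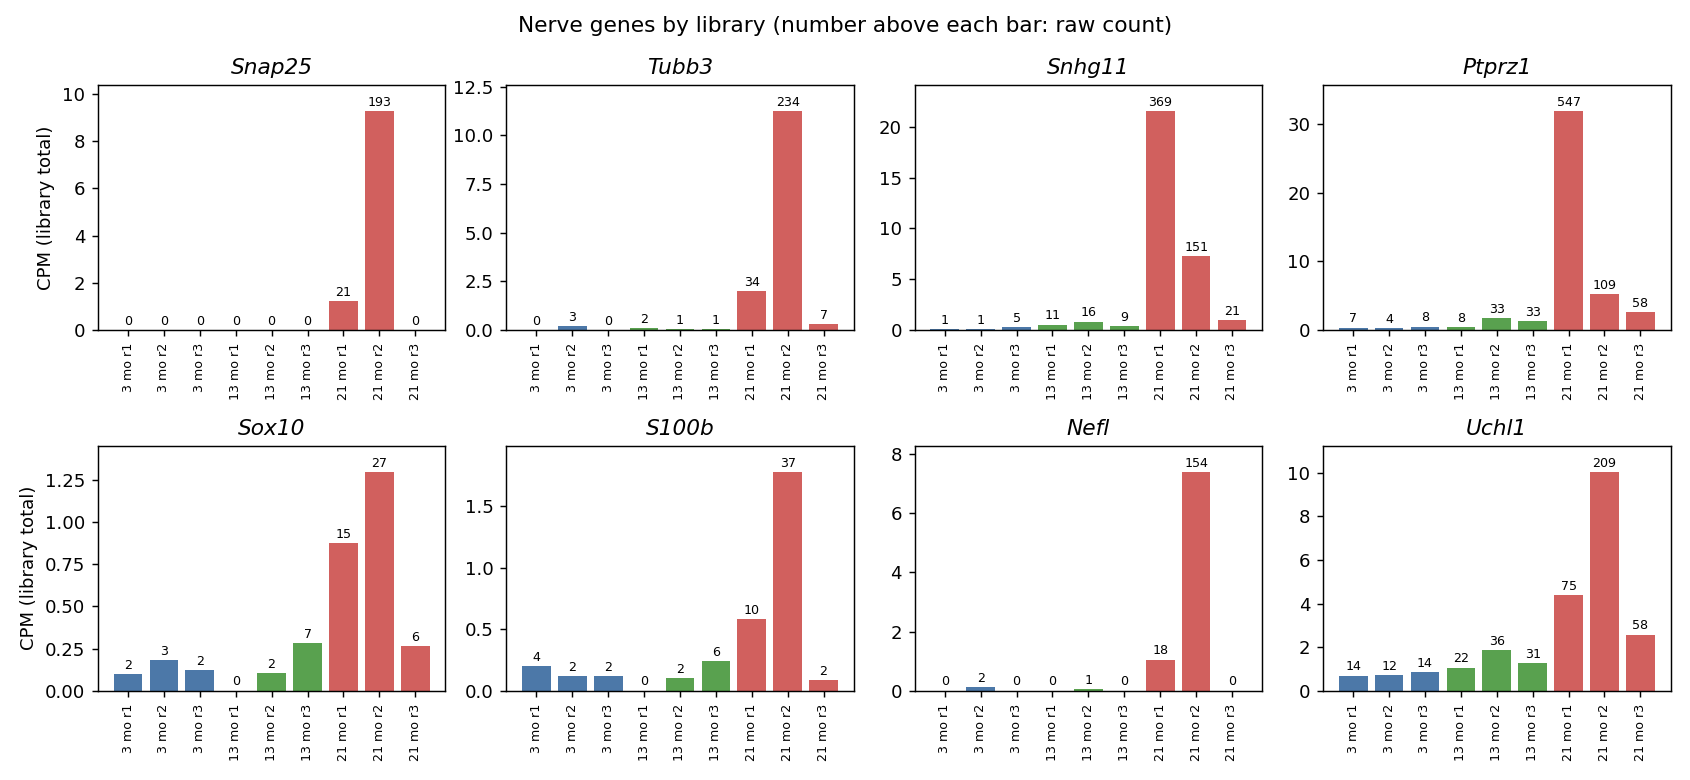
Level of each nerve gene in the 9 libraries, as CPM of the library total on a linear axis that starts at 0 in each panel, with the raw count above each bar. Bars are single libraries at 3 months (blue), 13 months (green) and 21 months (red), and replicates 1 and 2 at 21 months are the tallest in every panel, with replicate 1 ahead for Snhg11 and Ptprz1 and replicate 2 ahead for the other 6 genes.

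Among the genes of the axon and the synapse, Snap25 (ENSMUSG00000027273, GRCm38 chr2:136713453-136782428, + strand) had no count in any library at 3 or 13 months. Its counts at 21 months were 21, 193 and 0 in replicates 1 to 3, which is 1.23, 9.28 and 0 CPM. Replicate 3 was thus at 0 like the 6 younger libraries, which at its depth allows up to 0.133 CPM. Over the pooled counts, 21 months was at least 62.9-fold higher than 3 months and at least 76.6-fold higher than 13 months. Both bounds take a floor of 3 counts over each younger age and rest on replicates 1 and 2. Pooled rates here are all per library total, by which the all-gene median log2 fold change at 21 against 3 months was 0.62.

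Tubb3 (ENSMUSG00000062380, chr8:123411424-123422015, + strand) was almost absent from the younger tissue, where the 3-month libraries held 0, 3 and 0 counts and the 13-month ones 2, 1 and 1. At 21 months it had 34, 234 and 7 counts, or 1.98, 11.2 and 0.311 CPM. The ages of 3 and 13 months overlapped, and every 21-month library lay above both. Replicate 3 alone, at 0.311 CPM, stood against a pooled 0.0563 CPM at 3 months. The pooled rate of all 21-month libraries was 80.8 times that at 3 months, with a 95% counting interval from 27.4 to 394.4, since only 3 counts stand at 3 months. All intervals here cover counting error only, because without molecular identifiers several reads can stem from 1 molecule.

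Nefl (ENSMUSG00000022055, chr14:68083863-68089095, + strand) followed Snap25. Counts were 0, 2 and 0 in the 3-month libraries and 0, 1 and 0 in the 13-month ones. The oldest libraries held 18, 154 and 0 counts, 1.05, 7.40 and 0 CPM. Again replicate 3 at 21 months was at 0 and the younger ages overlapped. In the annotation, 1108 exon bases of Nefl, 32.8% of its exons, also lie in exons of Nefm on the opposite strand. Nefm encodes the medium neurofilament chain. The strand setting of the counting is not given in the sources used here, so reads from these bases cannot be told apart. Nefm itself had no count in the 3-month libraries, then 1, 2 and 0, and 17, 41 and 1 in the oldest.

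Uchl1 (ENSMUSG00000029223, chr5:66676091-66687234, + strand) was measured above 10 counts in all 9 libraries. The 3-month libraries stood at 0.694, 0.726 and 0.843 CPM, the 13-month libraries at 1.06, 1.85 and 1.25 CPM, and the 21-month libraries at 4.38, 10.05 and 2.58 CPM. The 3 ages did not overlap, and replicate 2 at 21 months was the highest. Its antisense gene Uchl1os, which shares 18.1% of the Uchl1 exon bases, had no count in any library.

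Snhg11 (ENSMUSG00000044349, chr2:158375638-158386145, + strand) started from 1, 1 and 5 counts at 3 months and reached 11, 16 and 9 by 13 months. At 21 months it had 369, 151 and 21 counts, or 21.5, 7.26 and 0.932 CPM. Here replicate 1, not replicate 2, was the highest library, and the 3 ages did not overlap, although 21-month replicate 3 lay close to the 0.824 CPM of 13-month replicate 2. The annotation used lists Snhg11 as protein coding, and 133 of its exon bases lie in the snoRNA gene Gm25187, which had no count.

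Among the glial genes, Ptprz1 (ENSMUSG00000068748, chr6:22875502-23052916, + strand) was detected in all 9 libraries. Its 3-month libraries held 7, 4 and 8 counts, the 13-month libraries 8, 33 and 33, and the 21-month libraries 547, 109 and 58. In CPM the 21-month libraries stood at 31.9, 5.24 and 2.58, all above the highest younger library at 1.70, while 3 and 13 months overlapped. As for Snhg11, replicate 1 was the highest.

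Sox10 (ENSMUSG00000033006, chr15:79154908-79165240, - strand) was low throughout, starting from 2, 3 and 2 counts, with 0, 2 and 7 in the 13-month libraries and 15, 27 and 6 in the oldest. Its 21-month replicate 3, at 0.266 CPM, lay below 13-month replicate 3 at 0.282 CPM. S100b (ENSMUSG00000033208, chr10:76253853-76261159, + strand) had 4, 2 and 2 counts, then 0, 2 and 6, then 10, 37 and 2. For S100b too, 21-month replicate 3, at 0.0888 CPM, lay within the younger libraries. The pooled rate at 21 months was 6.05 times that at 3 months for Sox10, with a counting interval from 2.72 to 15.8, and 5.40 times for S100b, from 2.54 to 13.2. With replicate 3 alone at 21 months, Sox10 at 0.266 CPM stood against a pooled 0.131 CPM at 3 months, and S100b at 0.0888 CPM lay below its pooled 0.150 CPM. S100b lies within the span of Dip2a on the opposite strand, with no exon base in common.

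Without replicates 1 and 2, the single remaining 21-month library lay above all 6 younger libraries for 4 of the 8 genes: Tubb3, Snhg11, Ptprz1 and Uchl1. Over all genes with at least 30 counts, 14.5% showed that order with TMM scaling. For Sox10 and S100b this library lay within the younger range, and for Snap25 and Nefl it held no count. The fitted log2 difference between 21 and 3 months, given as a description, was 5.40 for Snhg11, 4.42 for Ptprz1 and 2.30 for Uchl1 with all libraries. With replicate 3 as the lone 21-month library it was 2.59, 2.65 and 1.59. Against 13 months the values were 3.42, 2.85 and 1.50 with all libraries, and 0.62, 1.08 and 0.79 with replicate 3 alone.

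Between 3 and 13 months, the comparison that the selection did not use, no nerve gene passed the test. Of the 8 genes, 3 had enough counts to be tested, and Snap25, Tubb3, Nefl, Sox10 and S100b, which held at most 7 counts in any 3- or 13-month library, were not tested. Snhg11 and Ptprz1 passed the filter only with 21-month libraries counted in, and with only the 6 younger libraries neither was tested. Uchl1 passed in that setting too. With edgeR's quasi-likelihood F test and Benjamini-Hochberg adjustment over 16067 genes, Snhg11 gave a log2 fold change of 1.98 (SE 1.25, adjusted p = 0.813), Ptprz1 1.57 (SE 0.97, adjusted p = 0.810) and Uchl1 0.80 (SE 0.46, adjusted p = 0.783), each positive toward 13 months. None of the 3 had an unadjusted p under 0.05 in edgeR or limma-voom, while DESeq2 gave 2 of them one, with 0 called by each tool. Over all genes tested, 0.0436% were called higher and 0.411% lower at 13 months. The 3 libraries of 13 months did lie above the 3 of 3 months for 2 of the 8 genes, Snhg11 and Uchl1, an order seen for 7.91% of all genes with at least 30 counts.

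The nerve genes split between the high libraries. Snap25, Tubb3, Nefl, Uchl1, Sox10 and S100b were highest in replicate 2 at 21 months, whereas Snhg11 and Ptprz1 were highest in replicate 1. The ratio of replicate 1 to replicate 2 in CPM was 0.132 for Snap25, with a 95% counting interval from 0.0799 to 0.208. It was 0.142 for Nefl (0.0819 to 0.232) and 0.176 for Tubb3 (0.119 to 0.254), so that the intervals of these axonal and synaptic genes overlapped. S100b at 0.328 (0.146 to 0.673) and Uchl1 at 0.436 (0.330 to 0.570) also lay below 1, and the interval of Sox10 at 0.674 (0.333 to 1.31) included it. Snhg11 at 2.97 (2.45 to 3.61) and Ptprz1 at 6.09 (4.95 to 7.55) lay on the other side, and their intervals did not overlap each other. These intervals compare 2 libraries, not conditions. The median ratio of all genes with at least 30 counts was 1.14, and that of the 14 adipocyte genes was 0.116.

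**Figure D2:**
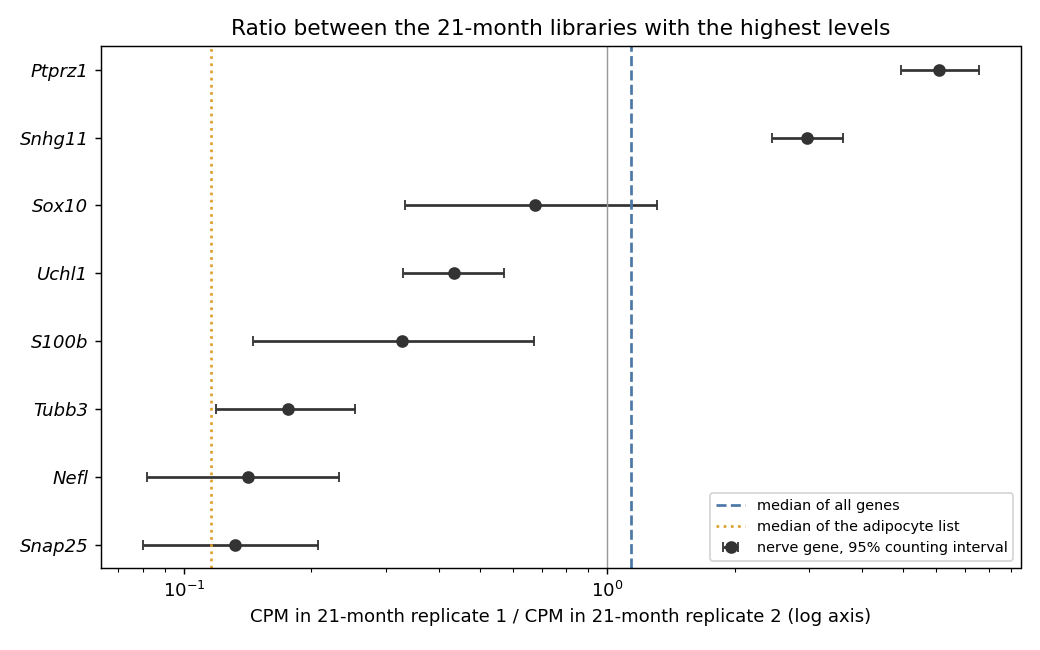
Ratio of the level in 21-month replicate 1 to that in 21-month replicate 2 for each nerve gene, from CPM per library total, on a log axis with 95% exact counting intervals. The dashed line marks the median of all genes at 1.14 and the dotted line that of the adipocyte list at 0.116, and Snhg11 and Ptprz1 stand to the right of 1 while the other 6 points stand to its left.

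In the other 7 libraries the likeness between the genes ranged widely. Pearson's r of log2(CPM + 0.5) over those 7 libraries ranged from -0.45 (Snhg11 with S100b) to 0.95 (Ptprz1 with Uchl1). Snap25 had no count in these libraries, so no pair with it has an r. Snhg11 and Uchl1 reached 0.92, and Snhg11 and Ptprz1 0.83. These are descriptions over few libraries with few counts, and no pooled value over all 9 is given because 2 libraries stand apart.

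Per length, the order of the genes could be compared within a library. On TPM (transcripts scaled by length to a sum of 1000000) over the union of exons, Uchl1 was the highest of the 8 in every 21-month library, at 4.32, 8.19 and 1.65 TPM. Tubb3 stood next to it in replicate 2 at 8.02 TPM, a gap smaller than the spread between the 21-month libraries. In replicate 1 Snhg11 and Ptprz1 followed Uchl1 at 4.08 and 3.61 TPM, and with the longest transcript as the length Ptprz1 moved ahead of it, at 5.79 against 5.44 TPM. Snap25, Nefl, Sox10 and S100b stayed between 0.291 and 2.92 TPM in replicates 1 and 2.

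Start regions are shown for Tubb3 and Uchl1, which were highest in replicate 2, and for Snhg11 and Ptprz1, which were highest in replicate 1, so that the genes of each side can be set next to each other. RefSeq promoter sequences (GRCm38.p6), running from 250 bases before to 50 bases after the start site, matched 5 of the 8 genes, these and S100b. Snap25, Sox10 and Nefl had no entry. Capitals mark matches on either strand to TCAGCACC and GGACAGC, the left and right parts of the RE1 element bound by the neuronal gene repressor REST, to the CCAAT box, to the GC box GGGCGG and to ACAATG, a core bound by SOX proteins. No matches overlapped.
Tubb3, chr8:123411303-123411602, + strand: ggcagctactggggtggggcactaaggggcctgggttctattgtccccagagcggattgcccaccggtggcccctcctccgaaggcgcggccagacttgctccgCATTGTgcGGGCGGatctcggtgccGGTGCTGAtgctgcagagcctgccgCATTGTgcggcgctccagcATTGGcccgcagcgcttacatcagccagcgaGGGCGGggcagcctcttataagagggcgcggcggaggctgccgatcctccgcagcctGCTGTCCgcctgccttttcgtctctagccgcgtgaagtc
Uchl1, chr5:66675871-66676170, + strand: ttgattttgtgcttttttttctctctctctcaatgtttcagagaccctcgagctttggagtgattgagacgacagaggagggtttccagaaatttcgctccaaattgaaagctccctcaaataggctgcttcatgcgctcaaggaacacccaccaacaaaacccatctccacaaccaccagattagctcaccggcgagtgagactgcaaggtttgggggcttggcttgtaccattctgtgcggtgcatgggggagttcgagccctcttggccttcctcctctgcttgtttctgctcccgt
Snhg11, chr2:158375463-158375762, + strand: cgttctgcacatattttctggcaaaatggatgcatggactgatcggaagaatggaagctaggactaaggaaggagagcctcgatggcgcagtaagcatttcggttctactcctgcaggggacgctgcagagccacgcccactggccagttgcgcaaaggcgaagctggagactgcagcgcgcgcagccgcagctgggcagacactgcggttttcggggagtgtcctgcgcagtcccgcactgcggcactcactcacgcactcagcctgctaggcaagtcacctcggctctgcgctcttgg
Ptprz1, chr6:22875252-22875551, + strand: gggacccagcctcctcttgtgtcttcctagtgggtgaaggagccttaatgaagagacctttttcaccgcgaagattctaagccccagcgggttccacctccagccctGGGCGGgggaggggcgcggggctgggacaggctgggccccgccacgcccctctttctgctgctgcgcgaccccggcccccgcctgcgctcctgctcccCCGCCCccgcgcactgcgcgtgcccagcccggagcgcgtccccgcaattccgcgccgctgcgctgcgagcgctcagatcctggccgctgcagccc

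Only Tubb3 of these 5 regions held either RE1 part. TCAGCACC matched on the minus strand with its first plus-strand base at position -121, where 0 is the start site, and GGACAGC on the minus strand at 11. Of all 32851 promoters in the table, 1.65% held the first and 6.56% the second. ACAATG matched in Tubb3 at -146 and -96 and in 12.6% of all promoters. GGGCGG matched in Tubb3 at -138 and -46 and in Ptprz1 at -143 and -45, against 35.7% of all. CCAAT matched in Tubb3 at -77 and in S100b at -202 and -20, against 37.4%. Snhg11 and Uchl1 held none of the 5 motifs in this window. The GC content was 71.7% in Ptprz1, 67.3% in Tubb3, 60.0% in Snhg11, 53.7% in S100b and 50.7% in Uchl1, with a median of 52.7% over all promoters. The matches describe letters only, and no motif was found in both printed genes of either side.

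In a wider set of nerve genes, many but not all were high in the same libraries. Lists of 85 neuronal and 33 Schwann cell genes, none of them among the 8, held 118 genes, of which 51 were tested. On TMM-scaled CPM, 78 of the 118 were highest in 21-month replicate 2, 16 in replicate 1, 5 in replicate 3 and 18 in a younger library, and 1 had no count. The share of all genes highest in replicate 2 was not computed, so counts of genes highest in a library are descriptions, here and below. Other lists differed: 8 of 8 fibroblast, 7 of 8 smooth muscle and 5 of 6 endothelial genes were highest in replicate 2. Of 10 secretory and 8 skeletal muscle genes, 0 were. Replicates 1 and 2 both lay above the other 7 libraries for 63 of the 118, 47 neuronal and 16 Schwann cell genes, beside the 11.9% of all genes given above. The TMM-scaled sum of the 33 Schwann cell genes was 257.5 CPM in replicate 1, the lowest of all libraries. In replicate 2 it was 378.1 CPM, within the 316.0 to 397.2 CPM of the other 7. At 13 against 3 months 0 of the 51 tested genes were called, with 5 at an unadjusted p under 0.05 in edgeR. At 21 against 3 months 2 rose and 0 fell, with 1.26% of all tested genes called higher and 0.766% lower. Their median log2 fold change there was 0.66, against 0.01 over all genes. At 21 against 13 months 0 were called by edgeR, with 16 at an unadjusted p under 0.05 and 7 called higher by DESeq2. Over all genes in that comparison, 0.00622% were called higher and 0% lower. Of the genes behind these counts, the 2 that rose at 21 against 3 months were Slc5a7, the choline transporter of cholinergic terminals (log2 fold change 5.84, adjusted p = 0.049 in edgeR), and Cacna1e, a voltage-gated calcium channel subunit (3.95, adjusted p = 0.043). Each held at most 5 counts in any younger library, so both entered the test only through the 21-month libraries in which they are high, and their calls carry that selection, as does the median above. Both calls were lost without 21-month replicate 2, where 0 list genes were called higher, and with any one of the younger libraries left out. Without 21-month replicate 3, which holds the lower values, 40 were called higher and 4 lower.

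**Figure D3:**
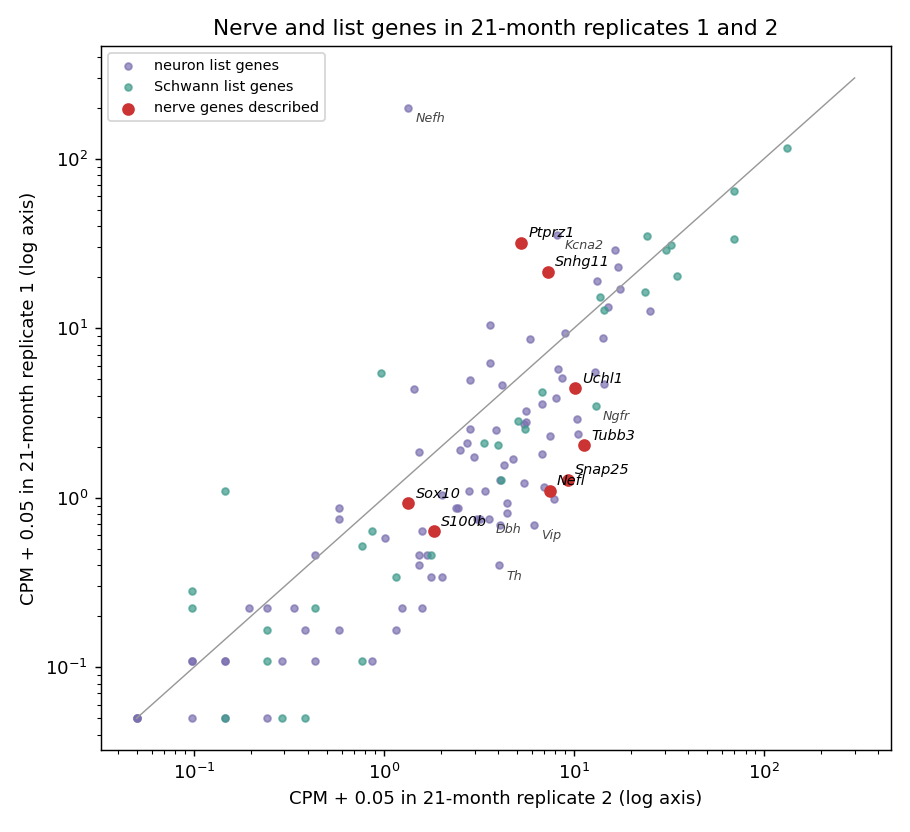
Level of each nerve gene and list gene in 21-month replicate 1 (vertical) against replicate 2 (horizontal), as CPM of the library total plus 0.05 on log axes, with the line of equal level. Most neuronal (purple) and Schwann cell (green) list genes lie below the line with Snap25, Tubb3, Nefl, Uchl1, Sox10 and S100b, while Ptprz1, Snhg11, Nefh and Kcna2 lie above it.

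Many but not all transmitter genes of autonomic fibres were highest in the same library as Snap25. Th, which encodes the rate-limiting enzyme of noradrenaline synthesis, had 6, 83 and 2 counts in the 21-month replicates 1 to 3, and at most 4 in any younger library. Dbh, which converts dopamine to noradrenaline, had 12, 73 and 0, with a single count in the younger libraries together. Npy, a peptide co-transmitter of sympathetic fibres, had 40, 217 and 20. Of the 14 noradrenergic genes 11 were highest in replicate 2. Slc6a2, the noradrenaline transporter, had 80 to 189 counts in the younger libraries and 394, 354 and 203 at 21 months, with replicate 1 highest, and Hand2, a sympathetic transcription factor, was highest in 13-month replicate 2. None of the 14 was called by edgeR at any comparison, while DESeq2 called Npy higher at 21 against 3 months (adjusted p = 0.013) and at 21 against 13 months (adjusted p = 0.030). Npy held 2 to 14 counts in the younger libraries and passed the filter only with 21-month libraries counted in. Its 2 DESeq2 calls therefore carry the same selection as those of Slc5a7 and Cacna1e. Among the cholinergic and nitrergic genes, Vip, the vasodilator peptide, had 11, 127 and 0 counts at 21 months, Nos1, the neuronal nitric oxide synthase, 18, 57 and 1, and Chat, which makes acetylcholine, 1, 8 and 0. Of these 6 genes 5 were highest in replicate 2, and Ache, which breaks down acetylcholine, was highest in replicate 1 with 74, 29 and 46 counts. Of the 11 sensory neuron genes, Calca, Scn10a, Scn11a and Tac1 had at most 1 count each in any library, Trpa1 had 1 in all and Mrgprd had none. Calcb, with 3, 3 and 2 counts at 21 months, and Trpv1, the capsaicin receptor, with 7, 8 and 3, were low but stood highest in replicates 1 and 2. Isl1, a transcription factor with 124 to 296 counts per library, and P2rx3 and Avil were measured in every library and were not called by edgeR.

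Some neuronal genes sat with Ptprz1 on the replicate 1 side. Nefh, the heavy neurofilament chain, had 3440, 27 and 5 counts at 21 months and at most 7 in any younger library, so that it differed between the 21-month libraries far more than Nefl or Nefm. Kcna2, an axonal potassium channel, had 611, 169 and 9, and Pclo, a scaffold of the presynaptic active zone, had 178, 74 and 5. Among the Schwann cell genes Egr2, a regulator of myelination, had 93, 19 and 3, and Sox2 had 18, 2 and 1. These genes were named after their values were seen, and replicate 1 is the library with the prostate transcripts.

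Most Schwann cell genes were highest in replicate 2 with Sox10 and S100b, 21 of 33. Ngfr, the low-affinity neurotrophin receptor, had 59, 270 and 6 counts at 21 months and at most 5 in any younger library. Cdh19, a cadherin of the Schwann cell lineage, had 74, 212 and 14. Scn7a, a sodium channel of glia and other non-excitable cells, had 573, 1455 and 240 counts at 21 months, against 73 to 232 before. Erbb3, a neuregulin receptor that epithelium also makes, had the most counts of the 33 and stood between 1848 and 2899 counts in all 9 libraries. Others of the list had negative values at 21 against 3 months: in the edgeR fit Gjb1 had a log2 fold change of -1.19, L1cam -0.90, Ncam1 -0.89 and Mal -0.62. None of the 33 was called by edgeR at any of the 3 comparisons. At 21 against 3 months DESeq2 called Scn7a (adjusted p = 0.0087) and Mbp (0.025) higher and Gjb1 (0.0026), Ncam1 (0.0049) and Mal (0.037) lower, and at 21 against 13 months Scn7a higher (0.015).

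Other list levels moved with the nerve genes in the same libraries. In replicate 2 at 21 months, all 14 adipocyte genes were highest. Adipoq, the adipocyte hormone adiponectin, had 391, 3455 and 0 counts at 21 months, and Ucp1, the uncoupling protein of brown fat, had 1, 1174 and 0. Replicate 2 at 3 months also held a little of this signal, with 13 counts of Adipoq and 132 of Cfd. Its summed level of the 8 nerve genes, 1.63 CPM, lay between the 1.39 and 1.87 CPM of replicates 1 and 3 at 3 months. That library held 27 counts of the 8 genes and 51.1 CPM of the adipocyte list, against 2977 CPM in 21-month replicate 2. These values are too low to show whether the nerve and adipocyte levels go together, which was not tested. Fibroblast genes summed to 529.7 CPM in replicate 1 and 925.4 CPM in replicate 2, against 146.2 to 335.7 CPM elsewhere, and endothelial genes to 76.5 and 135.9 CPM, against 38.2 to 55.9 CPM. With TMM scaling only replicate 2 stood out in both lists, at 693.8 and 101.9 CPM, while replicate 1, at 337.1 and 48.7 CPM, lay within the other libraries' range. The neuroendocrine factors summed to at most 0.0584 CPM in any library. Of the 6 genes of the melanocyte list, Dct, Tyrp1 and Mlana had no count. The whole melanocyte list summed to 18.1 and 18.3 CPM in replicates 1 and 2 at 21 months, against 9.81 to 13.3 CPM elsewhere. With TMM scaling it summed to 11.5 and 13.7 CPM there, against 11.2 to 13.6 CPM elsewhere. Of the central glia list Olig2, Mobp and Opalin had no count. The central glia list summed to 0.759 and 0.625 CPM in replicates 1 and 2, against 0.0403 to 0.181 CPM elsewhere.

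**Figure D4:**
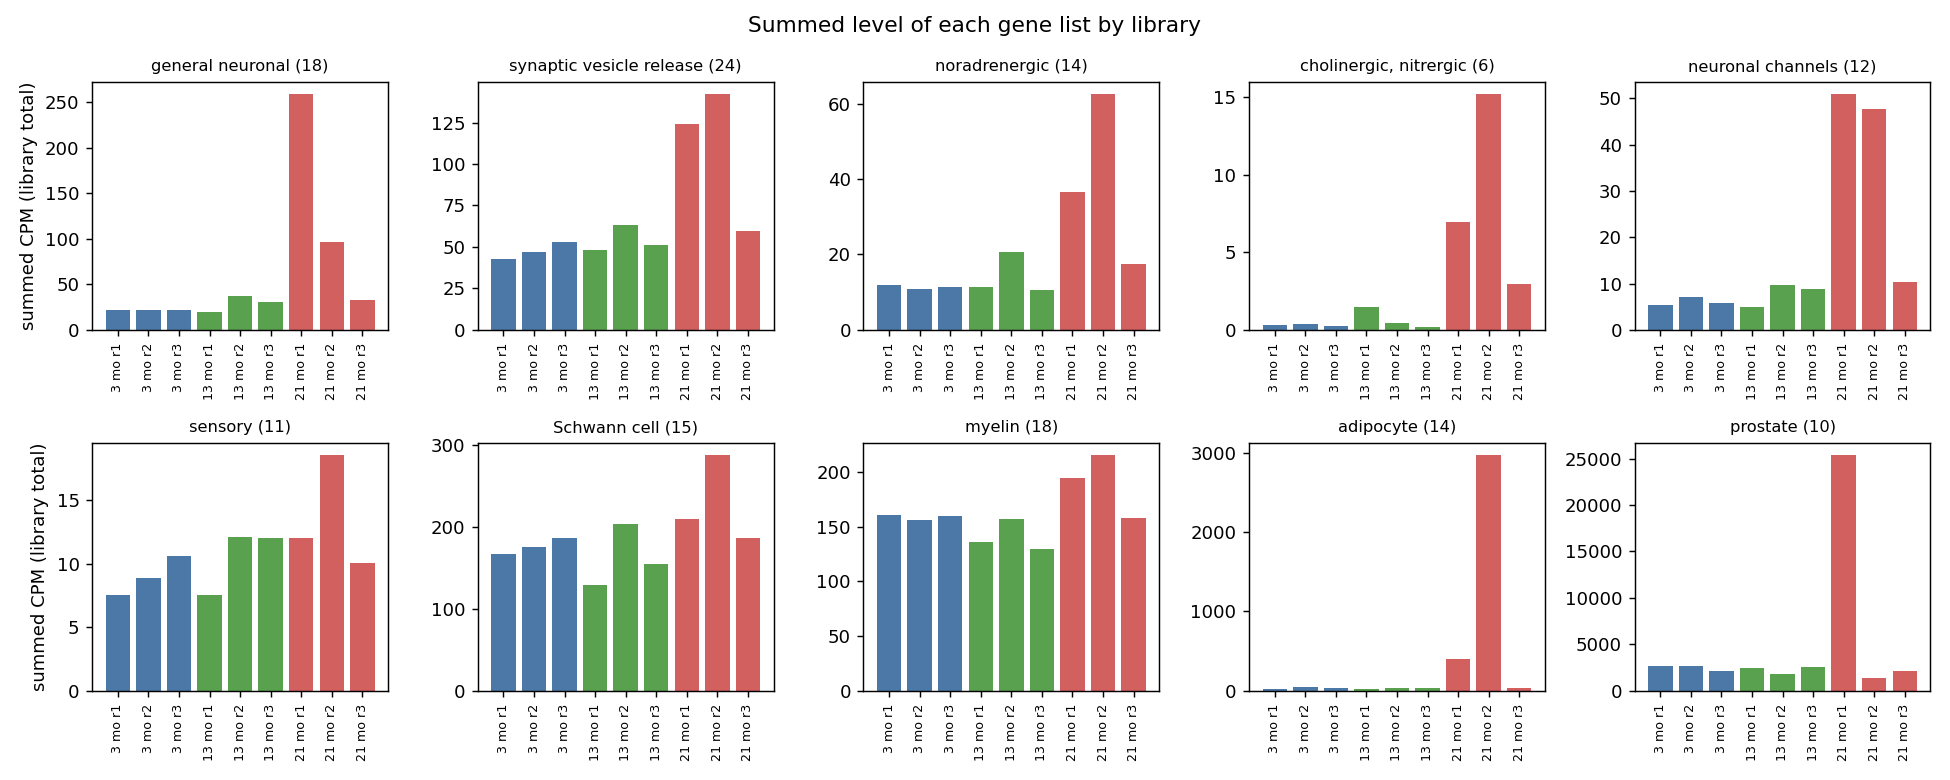
Summed level of 10 gene lists in each library, in CPM of the library total, with the number of genes in brackets and bars for single libraries at 3 (blue), 13 (green) and 21 months (red). Each neuronal list peaks in replicates 1 and 2 at 21 months except the sensory list, where replicate 1 is level with 2 of the 13-month libraries, while the prostate list peaks in replicate 1 alone and the adipocyte list in replicate 2. With TMM scaling, which is not drawn, the Schwann cell and myelin lists are lowest in 21-month replicate 1, at 133.3 and 124.2 CPM.

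Relatives of the nerve genes, many of them in general use by cells, are given here from the edgeR fit. Snap23, Snap29 and Snap47, SNAP25 relatives of general membrane traffic, had log2 fold changes of 0.12, -0.06 and -0.04 at 21 against 3 months. Tubb5 and Tubb4b, general beta-tubulins, gave 0.04 and 0.17, and Tubb4a, a tubulin of nervous tissue, had 10, 19 and 2 counts at 21 months and at most 2 before. The hydrolases Uchl3 and Uchl5 gave -0.27 and -0.32. Of 9 tested S100 genes 0 rose and 2 fell at 21 against 3 months, S100a14 (-1.91, adjusted p = 0.044 in edgeR) and S100a16 (-0.71, adjusted p = 0.030). Sox9, a SOX10 relative of epithelium and cartilage, gave 0.60, and Sox8 had 9, 19 and 5 counts at 21 months. Ptn, which encodes the PTPRZ1 ligand pleiotrophin, gave -0.40. Of 11 tested small nucleolar RNA host genes beside Snhg11, 0 were called by edgeR, with a median log2 fold change of -0.14 at 21 against 3 months.

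The neurotrophic list, made of factors and receptors linked to neurons and Schwann cells, held 15 genes. Of these, 14 were tested and 0 called by edgeR at any comparison. Bdnf, a neuronal growth factor, had 13 to 17 counts at first, then 73, 124 and 39 at 13 months and 43, 114 and 159 at 21 months. Its log2 fold change was 2.11 at 13 against 3 months (adjusted p = 0.33 in edgeR), 2.16 at 21 against 3 (adjusted p = 0.083) and 0.04 at 21 against 13. Bdnf was highest in replicate 3 at 21 months, where none of the 8 nerve genes was highest. Ret, a receptor of the glial-derived factors, had 112, 195 and 17 counts and so followed the nerve genes.

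Genes of like pattern were sought by Pearson's r of log2(CPM + 0.5) over the 9 libraries with the mean standardized profile of the 8, among 14321 candidates. The 10 most alike were Slc25a20 (r = 0.994), Igkv14-126, Sox6, Eci1, Ywhag, Nsg1, Tmeff2, Txlng, Tnr and Mgst1 (r = 0.989), and r here rests on the 2 high libraries. With TMM scaling 3 of the 10 were again among the 10 most alike, and without 21-month replicate 2 none was. Snap25 was most like Slc7a14, Chrna3 and Klb, and all of these had no count in any younger library or in 21-month replicate 3. Tubb3 was most like Ankef1, Trim67 and Ighv1-78, and Nefl most like Myl1, Sucnr1 and Ces1f. For Uchl1 they were Fam43a, Plbd1 and Csmd1, for S100b Pde3b, Aifm2 and Cdh2, and for Sox10 Map3k10, Gpc3 and Eva1b. Snhg11 was most like Wdr37, Nfe2l1 and Cd22, and Ptprz1 most like Ift81, Nhlrc2 and Eea1. No gene was named for more than 1 of the 8.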

How the data were processed

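Raw counts of reads per Ensembl gene were deposited, which the authors made with HISAT2 and featureCounts on GRCm38 (mm10), per the submitters' processing notes. Versions, annotation, strand setting and the treatment of multiply mapped reads are not given in the sources used here. Columns were assigned to ages by their names. Identifiers were matched to GENCODE M21 for symbols, coordinates and exon lengths: 53274 of 53379 matched, and the other 105 held 0.00839% of counts.

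From these counts, CPM was computed per library total, or scaled by TMM where stated, and TPM from exon union lengths. Genes passing filterByExpr (minimum count 10, minimum total 15), 16067 in number, entered the quasi-likelihood F test of edgeR 4.0.16 in R 4.3.3 with 1 coefficient per age over all 9 libraries (biological coefficient of variation 22.4%). Calls have a Benjamini-Hochberg adjusted p below 0.05 over all tested genes, and SE is the absolute log2 fold change over the square root of F. Intervals of ratios are exact 95% intervals. No 2 libraries of the same age agreed within sampling noise. The steps were tested on simulated data.

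The 8 genes and the gene lists were chosen with earlier results of these data known. Named are the 8, called and abundant or defining list genes, and the 10 genes, with 3 per member, of most similar pattern among genes of at least 30 counts without predicted names. Alternatives were DESeq2 1.42.0, limma-voom (limma 3.58.1), DESeq2 size factors, library totals, 2 other filters, only the 6 libraries compared, a replicate block, a robust spread, 21 months as replicate 3 alone and leaving out each library. With library totals alone, the all-gene median of log2 fold changes was 0.62 rather than 0.01 at 21 against 3 months, and 0.55 rather than 0.0047 at 21 against 13 months. Fitted log2 fold changes are given relative to TMM, while pooled rates and their ratios are per library total. Some list genes that the naming rule allows are not reported here.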

Additional observations from a re-analysis of the deposited data

How the results depend on the processing

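At 13 against 3 months 0 nerve genes were called under the alternatives run, among which Snhg11 and Ptprz1 did not pass the filter with at least 10 counts in all 9 libraries or with only the 6 libraries compared, and where a log2 fold change could be fitted it stayed positive: 1.55 to 3.18 for Snhg11, 1.27 to 1.93 for Ptprz1 and 0.62 to 0.89 for Uchl1. The counts of neuronal and Schwann cell list genes called depended on the processing. At 21 against 3 months (2 higher, 0 lower) DESeq2 called 13 higher and 3 lower, library totals alone 34 and 1, no filter beyond 1 count 8 and 2, and a replicate block 3 and 0. None was called higher by limma-voom, with at least 10 counts in all 9 libraries, with only the 6 libraries compared or with 21 months as replicate 3 alone. Leaving out 1 library gave 0 to 40 higher and 0 to 4 lower. At 21 against 13 months (0 and 0) DESeq2 called 7 higher and library totals alone 15, and leaving out 1 library gave 0 to 32 higher and 0 to 1 lower. At 13 against 3 months (0 and 0) DESeq2 called 1 higher, and 21 months as replicate 3 alone and only the 6 libraries compared each called 1 higher and 2 lower. Of the 10 genes of like pattern 3 were kept with TMM scaling and 0 without 21-month replicate 2. The cause of these shifts was not tested. Same-numbered libraries correlated between -0.17 and 0.21 in their deviations from the age means, so the replicate numbers are not taken to pair libraries. With 5 of the 8 genes at 7 counts or fewer in each younger library, depth limits what can be said of small changes between 3 and 13 months in them.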
